A study of Caenorhabditis elegans with 2 samples.

Results

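The 45 genes described here encode the enzymes of glycolysis, gluconeogenesis, the pyruvate dehydrogenase complex, the tricarboxylic acid (TCA) cycle and the glyoxylate bypass of Caenorhabditis elegans. They were listed by pathway step and matched by gene name, a rule that uses no measured value. The list was chosen, however, with earlier results of these data known. All 45 were found among the 19985 protein-coding genes of the annotation. Binding of the nuclear hormone receptor NHR-102 was measured by ChIP-seq, which sequences the DNA precipitated together with a protein, in intact L4 hermaphrodites of strain OP463, genotype unc-119(tm4063) III; wgIs463, collected 50 h after release from L1 starvation. Both libraries were biological replicates from this strain, in which an integrated transgene expresses NHR-102 with a C-terminal GFP-FLAG tag. The labels name an anti-GFP antibody in the description of the precipitation and nhr-102 as its antibody entry, and the files do not settle which is meant. There was 1 group with 2 replicates and no comparison between conditions, and animals lacking the tag were not analysed here. Signal at a promoter therefore cannot be told apart from signal that an untagged strain would give. Whole animals were used, so that a peak cannot be assigned to a tissue.

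Glycolysis splits glucose into pyruvate in the cytosol, and gluconeogenesis runs most of the same reactions backwards with a few enzymes of its own. Pyruvate enters the mitochondrion, where the pyruvate dehydrogenase complex turns it into acetyl-CoA and the TCA cycle oxidises that acetyl group, which feeds electrons to the respiratory chain. Nematodes also keep the glyoxylate bypass, which lets them make sugar from stored fat. Nuclear hormone receptors are transcription factors whose family is greatly expanded in nematodes.

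By the count described next, NHR-102 peaks stood at promoters of 9 of the 17 TCA cycle genes (against 8.95% of all protein-coding genes). Each of the 8 listed steps of the cycle had at least 1 such gene. Under other peak lists, windows and assignment rules it was 3 to 8 steps. NHR-102 peaks also stood at 4 of the 23 genes of glycolysis and gluconeogenesis (17.4%, against 8.95% of all protein-coding genes). Of these, the gpd-2 summit lay in an intron of mai-1 and the gpd-3 summit in a coding exon. The count was 2 with windows from 500 bp upstream to 100 bp downstream (6.70% of all genes) and 9 with 2000 bp upstream (11.3%). With the upper 50% of peaks by signal it was 0 (4.86%). The strongest member peaks lay at aco-2, dld-1, sucl-1 and cts-1, and the aco-2 summit was nearer to the 5′ end of eef-1B.1. A gene was counted when the summit of a reproducible peak lay between 1000 bp upstream and 200 bp downstream of an annotated 5′ end. The reproducible peaks are the 2796 that the authors kept by the irreproducible discovery rate (IDR), a measure of agreement between replicates, and they are called IDR peaks here. By this count a promoter summit was found at 14 of the 45 members (31.1%; the exact 95% interval ran from 18.2 to 46.6%), against 8.95% of all protein-coding genes. Of the 23 members of glycolysis and gluconeogenesis 4 had one (17.4%, interval 4.95 to 38.8%). Of the 22 members of the pyruvate dehydrogenase complex, the TCA cycle and the glyoxylate bypass 10 had one (45.5%, interval 24.4 to 67.8%). The intervals of both branches overlap, and the difference between them was not tested. Of the 17 genes of the TCA cycle itself 9 had one (exact 95% upper limit 77.0%). At each of the 8 TCA steps listed, at least 1 gene had a summit, with 1 to 4 genes per step. A step with several genes can be counted through any 1 of them, and no share over all genes was computed for steps. The list counts NADP-dependent and NAD-dependent isocitrate dehydrogenase as separate steps. The NADP-dependent step was counted through idh-1 alone, and idh-2 had no IDR summit. The list leaves out succinate dehydrogenase, which is described with the neighbouring pathways. The number of steps was 7 with the strongest peaks of replicate 1 alone, where malate dehydrogenase was missing, and 7 with those of replicate 2 alone, where fumarase was missing. It was 7 without aconitase when each summit went only to the nearest 5′ end whose window held it. With the upper 50% of the IDR list by signal it was 3 (citrate synthase, aconitase and succinyl-CoA ligase). Of the 13 steps of all branches that have more than 1 gene, 9 had a summit at some of their genes and 0 at all of them. In glycolysis and gluconeogenesis, 2 of 14 steps had a summit at 1 gene or more, hexokinase and glyceraldehyde-3-phosphate dehydrogenase.

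**Figure D1:**
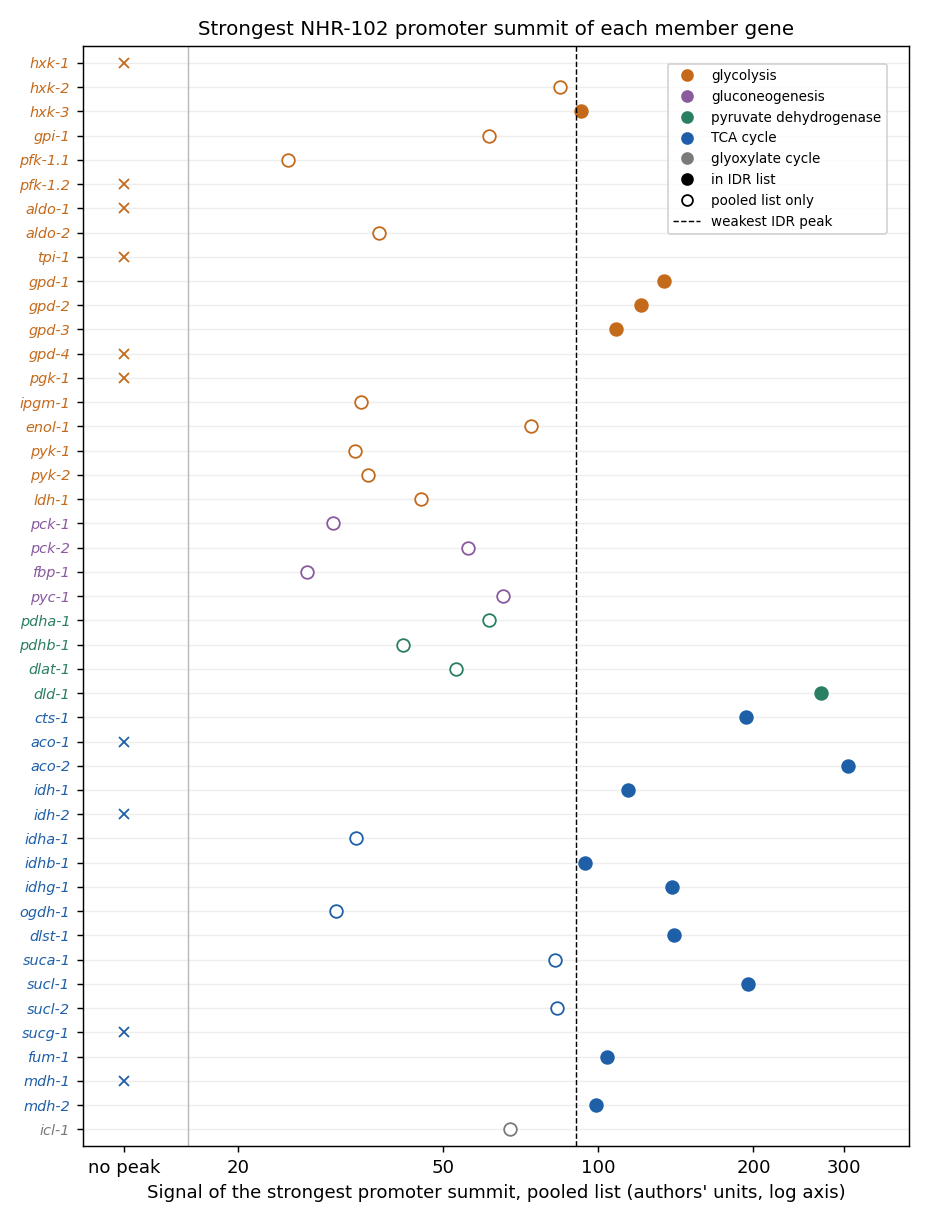
Signal of the strongest summit in the promoter window of each of the 45 member genes, from the pooled peak list (horizontal log axis, authors' units), with genes in pathway order. Filled circles are IDR peaks, open circles are peaks of the pooled list that are not IDR peaks, crosses are genes with no pooled summit in the window, and the dashed line is the weakest IDR peak (90.5). Filled circles cluster in the TCA cycle block and at gpd-1, gpd-2 and gpd-3.

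The signal of a peak was computed by the authors and can be compared inside 1 list but not between lists, so ranks are given across lists, with rank 1 the strongest. The pooled list and each replicate list held 30000 peaks, background regions included, and the 2796 IDR peaks were exactly the 2796 strongest of the pooled list. The lists hold no read numbers, and the depth behind a peak is unknown. The member peaks ran from a signal of 92.4 to 305 with a median of 127, against a median of 144 over the 1526 IDR peaks in promoter windows. Of the 14 member peaks, 4 stood among the upper 50% of the IDR list by signal. The members with a summit were therefore mostly of moderate or low rank among promoter peaks.

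The sequences around summits of the pyruvate dehydrogenase and TCA branch are shown for the 5 members whose window of 101 bp, 50 bp on either side of the summit, touched no annotated exon. They read 5′ to 3′ on the strand of the gene, in build ce11, and capitals mark matches to the motifs searched (ACGTG and TGATAA on either strand), which are described with the base composition. The windows are chrIV:14464218-14464318 for dld-1 (plus strand), chrIII:10217008-10217108 for cts-1 (minus), chrV:6709189-6709289 for dlst-1 (minus), chrX:14753662-14753762 for sucl-1 (plus) and chrIII:6608255-6608355 for mdh-2 (minus).
dld-1: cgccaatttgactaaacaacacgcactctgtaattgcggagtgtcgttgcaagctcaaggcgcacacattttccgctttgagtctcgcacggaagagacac
cts-1: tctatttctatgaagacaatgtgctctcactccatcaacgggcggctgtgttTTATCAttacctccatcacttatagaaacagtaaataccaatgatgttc
dlst-1: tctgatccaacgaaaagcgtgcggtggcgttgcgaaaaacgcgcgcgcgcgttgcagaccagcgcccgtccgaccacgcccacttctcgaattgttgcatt
sucl-1: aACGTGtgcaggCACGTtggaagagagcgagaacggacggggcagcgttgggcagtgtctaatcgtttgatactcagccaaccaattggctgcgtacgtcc
mdh-2: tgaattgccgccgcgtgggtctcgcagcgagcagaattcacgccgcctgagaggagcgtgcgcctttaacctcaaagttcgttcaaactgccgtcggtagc

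At the entry to the cycle, the dihydrolipoamide dehydrogenase gene dld-1 had the second highest signal of all members. This protein is the E3 subunit that the pyruvate and oxoglutarate dehydrogenase complexes share. Its peak (chrIV:14464136-14464355, intergenic) had a signal of 270 and rank 439, with the summit at -249 bp from the 5′ end, negative values being upstream. The replicate signals were 121 and 143, at ranks 624 and 385. The genes of the other pyruvate dehydrogenase subunits listed had no IDR summit in their windows. The E1 alpha gene pdha-1 had a pooled summit of signal 61.3 (rank 5113), the E1 beta gene pdhb-1 one of 41.7 (rank 9597), and the E2 gene dlat-1 one of 52.9 (rank 6511). The replicates placed pdha-1 at ranks 2405 and 9177, and the pdhb-1 promoter had a summit in replicate 1 alone (rank 4664).

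The citrate synthase gene cts-1, which condenses acetyl-CoA with oxaloacetate, had a peak of signal 193 and rank 862 at -423 bp (chrIII:10216942-10217242, intergenic). It stood higher in replicate 1 (signal 138, rank 476) than in replicate 2 (signal 68.6, rank 1601).

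The mitochondrial aconitase gene aco-2 had the highest signal of the 45 genes, 305 at rank 344 (chrIII:7973292-7973535, intergenic). The replicate signals were 157 and 151, at the nearly equal ranks 355 and 339. Its summit lay at -329 bp from the 5′ end of aco-2 and at -2 bp from that of the divergent gene eef-1B.1, which encodes a translation elongation factor subunit. Assigned to its nearest 5′ end, the peak belongs to eef-1B.1 and not to aco-2. The gene of the cytosolic aconitase, aco-1, had no promoter summit in the pooled list or in either replicate list.

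Among the isocitrate dehydrogenases, 2 of the 3 subunit genes of the NAD-dependent mitochondrial enzyme had an IDR summit. The idhg-1 peak (chrIII:4568529-4568972) had a signal of 139 (rank 1470) at -47 bp, with replicate ranks 1934 and 1527. Its summit also lay in the window of mlcd-1, a malonyl-CoA decarboxylase gene, at -620 bp from that gene. The idhb-1 peak (chrX:14173839-14174282) was weaker, with a signal of 94.4 (rank 2634) at 3 bp downstream of the 5′ end, and ranked 2316 and 5389. The catalytic subunit gene idha-1 had only a pooled summit of signal 33.9 (rank 13143), at -974 bp. Of the NADP-dependent enzymes, idh-1 had a peak (chrIV:9440826-9441269) of signal 114 (rank 1990) at 60 bp downstream of the 5′ end, in its untranslated exon, with replicate ranks 2113 and 2609. A stronger IDR peak (signal 282, rank 397) lay at -1341 bp from idh-1, outside the window, and idh-1 was the nearest gene by 5′ end. The promoter of idh-2 had no pooled summit and a summit in replicate 1 alone (signal 45.8, rank 3513).

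The dlst-1 gene encodes the E2 subunit of the oxoglutarate dehydrogenase complex. Its peak (chrV:6709018-6709461) had a signal of 140 (rank 1451) at -138 bp, with ranks of 1017 and 2739 in replicates 1 and 2. The E1 gene ogdh-1 had only a pooled summit of signal 30.9 (rank 14959), so that within this complex the E2 gene and the shared E3 gene dld-1 had IDR summits and the E1 gene did not.

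Succinyl-CoA ligase makes nucleoside triphosphate from succinyl-CoA. Its alpha subunit gene sucl-1 had a peak (chrX:14753491-14753934) of signal 195 (rank 854) at -314 bp, with replicate signals of 89.6 and 101 at ranks 1106 and 825. The other alpha subunit gene, sucl-2, and the beta subunit gene suca-1 fell just short of the IDR list, with pooled signals of 83.0 (rank 3161) and 82.4 (rank 3205). The remaining beta subunit gene, sucg-1, had no pooled summit.

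The fumarase gene fum-1 had a peak (chrIII:7465389-7465832) of signal 104 (rank 2287), centred 5 bp downstream of the annotated 5′ end, with ranks of 1431 and 5259 in replicates 1 and 2. The mitochondrial malate dehydrogenase gene mdh-2 had a peak (chrIII:6608084-6608527) of signal 98.8 (rank 2456) at -199 bp. Its replicates differed more than those of any other member with an IDR summit, with a signal of 28.6 (rank 7826) in replicate 1 and 69.1 (rank 1582) in replicate 2. The summit lay also at -317 bp from the divergent gene F20H11.4. The cytosolic malate dehydrogenase gene mdh-1 had no pooled summit in its window, and a summit in replicate 2 alone (signal 39.2, rank 4173).

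In glycolysis, 3 of the 4 glyceraldehyde-3-phosphate dehydrogenase (GAPDH) genes accounted for most of the promoter summits. GAPDH oxidises triose phosphate and makes the first NADH of the pathway. The gpd-1 peak (chrII:10393633-10394076) had a signal of 134 (rank 1542) at -275 bp, with replicate ranks 1441 and 1256. Its near copy gpd-4, with 99.0% identity of coding sequence, lies elsewhere on the same chromosome and had no promoter summit in the pooled list or in either replicate list. The 500 bp upstream of these 2 genes shared 78.6% of their bases, and every 36-mer within 150 bp of the gpd-1 summit occurred once in the genome. Uniqueness was not described for gpd-4, and the part of sequence identity in its lack of a summit was not tested.

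The genes gpd-2 and gpd-3 lie head to tail on X behind mai-1, a homologue of the mitochondrial ATPase inhibitor, in an operon whose downstream messages are separated by trans-splicing. The gpd-2 peak (chrX:3115153-3115373) had a signal of 121 (rank 1825) and replicate ranks of 1952 and 2039. Its summit at -551 bp from gpd-2 lay in an intron of mai-1, 338 bp downstream of the mai-1 5′ end, which was the nearest. The gpd-3 peak (chrX:3113060-3113222) had a signal of 108 (rank 2147) and replicate ranks of 2278 and 2281. It was centred 156 bp downstream of the 5′ end, in a coding exon. Neither summit fell inside a narrower window tried as an alternative (500 bp upstream, 100 bp downstream).

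The summit windows of these GAPDH peaks are shown because gpd-2 and gpd-3 are near copies of each other, with 97.4% identical coding sequence. For gpd-1 (chrII:10393804-10393904, plus strand) and for gpd-2 upstream of the gene (chrX:3115190-3115290, minus strand), no motif matched and no capitals are used. The window of gpd-3 (chrX:3113135-3113235, minus strand) is set beside the matching stretch of the gpd-2 coding sequence (chrX:3114501-3114601, minus strand), and capitals mark the 4 of 101 bases that differ.
gpd-1: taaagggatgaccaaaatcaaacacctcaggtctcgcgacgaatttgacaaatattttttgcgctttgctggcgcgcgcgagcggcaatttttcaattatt
gpd-2 upstream: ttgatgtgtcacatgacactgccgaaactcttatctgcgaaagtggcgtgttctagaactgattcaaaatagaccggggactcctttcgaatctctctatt
gpd-3 coding: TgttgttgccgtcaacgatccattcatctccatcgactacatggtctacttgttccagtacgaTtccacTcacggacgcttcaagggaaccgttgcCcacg
gpd-2 coding: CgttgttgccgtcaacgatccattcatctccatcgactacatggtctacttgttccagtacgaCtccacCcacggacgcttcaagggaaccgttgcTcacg

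No pooled peak overlapped the matching stretch of gpd-2. Elsewhere in gpd-2 there was 1 pooled summit, 554 bp downstream of its 5′ end, with a signal of 22.3 (rank 22150). Within 150 bp of the gpd-3 summit, 72.9% of 36-mers and 82.5% of 50-mers occurred once in the genome, while all 36-mers were unique around the summits of the other 13 members. How reads from repeated sequence were placed is not given in the sources used here, and the part of sequence identity in the gpd-3 peak was not tested.

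The remaining glycolytic summit was that of hxk-3, 1 of 3 genes for hexokinase, which phosphorylates glucose at the start of the pathway. Its peak (chrIV:1497388-1497831) had a signal of 92.4 (rank 2719) at -17 bp, the lowest of the members with an IDR summit, and ranked 2612 and 4538 in the replicates. The hxk-2 promoter stood just below the limit with a pooled signal of 84.3 (rank 3078), and the hxk-1 windows had no pooled summit. In the replicate lists hxk-1 had promoter summits at ranks 11472 (replicate 1, -877 bp) and 11675 (replicate 2, 131 bp). The glucose-6-phosphate isomerase gene gpi-1 had a pooled summit of signal 61.4 (rank 5105), and the enolase gene enol-1 one of 73.9 (rank 3775). Neither gene of phosphofructokinase, the main control point of glycolysis, had an IDR summit. A pooled summit at pfk-1.1 ranked 19527, the weakest of the members that had one, and pfk-1.2 had none in any list. No list had a summit at the triosephosphate isomerase gene tpi-1 either. The aldolase gene aldo-1 and the phosphoglycerate kinase gene pgk-1 had no pooled summit, and in the replicate lists they had summits no stronger than ranks 26111 (replicate 1) and 24421 (replicate 1). Pooled summits at the aldolase gene aldo-2, the mutase gene ipgm-1 and the pyruvate kinase genes pyk-1 and pyk-2 ranked between 11250 and 13267. The lactate dehydrogenase gene ldh-1 had a pooled summit of signal 45.2 (rank 8457).

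Of the 4 genes whose enzymes belong to gluconeogenesis alone or supply it, none had an IDR promoter summit (exact 95% upper limit 60.2%). Pyruvate carboxylase, which also refills the TCA cycle, came closest, with a pooled summit at pyc-1 of signal 65.3 (rank 4607). The phosphoenolpyruvate carboxykinase genes pck-2 and pck-1 had pooled signals of 55.9 (rank 5940) and 30.5 (rank 15205). The fructose-1,6-bisphosphatase gene fbp-1 had 27.2 (rank 17680).

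The gene icl-1, whose protein carries both enzymes of the glyoxylate bypass, was not counted although an IDR peak covered the whole gene. The summit of that peak lay in a coding exon at 224 bp downstream of the nearest 5′ end, just past the window limit of 200 bp. It had a signal of 148 (rank 1330) and replicate ranks of 856 and 2282, and the peak was 4623 bp wide. The summit lay inside the window of the chemoreceptor gene srh-2, at -532 bp. Inside the icl-1 window the strongest pooled summit had a signal of 67.4 (rank 4386). A further IDR summit (signal 104, rank 2286) lay at -1308 bp from icl-1, in an intron of srh-2.

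Other members without an IDR promoter summit had one nearby. Of the 31 such genes, 8 had an IDR summit within the gene or within 2000 bp of a 5′ end (25.8%). The same held for 6.31% of the 18196 protein-coding genes without a promoter summit, with no matching for gene length. The hxk-1 summit (signal 195, rank 844) lay in an intron, at -1601 bp from the nearest 5′ end of hxk-1 and 3294 bp downstream of its outermost one. At pyk-1 the summits lay at -1275 bp (signal 103) and in an intron at 276 bp (signal 99.8). Summits stood at -1171 bp from tpi-1 (signal 91.1) and at -1542 bp from fbp-1 (signal 172), the latter in an untranslated exon of ptr-12. A summit at -1661 bp from pyc-1 (signal 164) was nearer to the 5′ end of D2023.4 (1572 bp). The one at -1886 bp from suca-1 (signal 93.9) was nearer to the 5′ end of acbp-3, and that 1335 bp downstream of the mdh-1 5′ end (signal 114) lay in the promoter window of dpy-11. A further IDR summit beside some of the counted members lay at -1503 bp from hxk-3 (signal 129), where the nucleoporin gene npp-20 was nearer, and past the 3′ side of gpd-3 (1432 bp, signal 128) and mdh-2 (1802 bp, signal 174). At cts-1 a summit 1788 bp downstream (signal 101) had no matching peak in replicate 1.

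**Figure D2:**
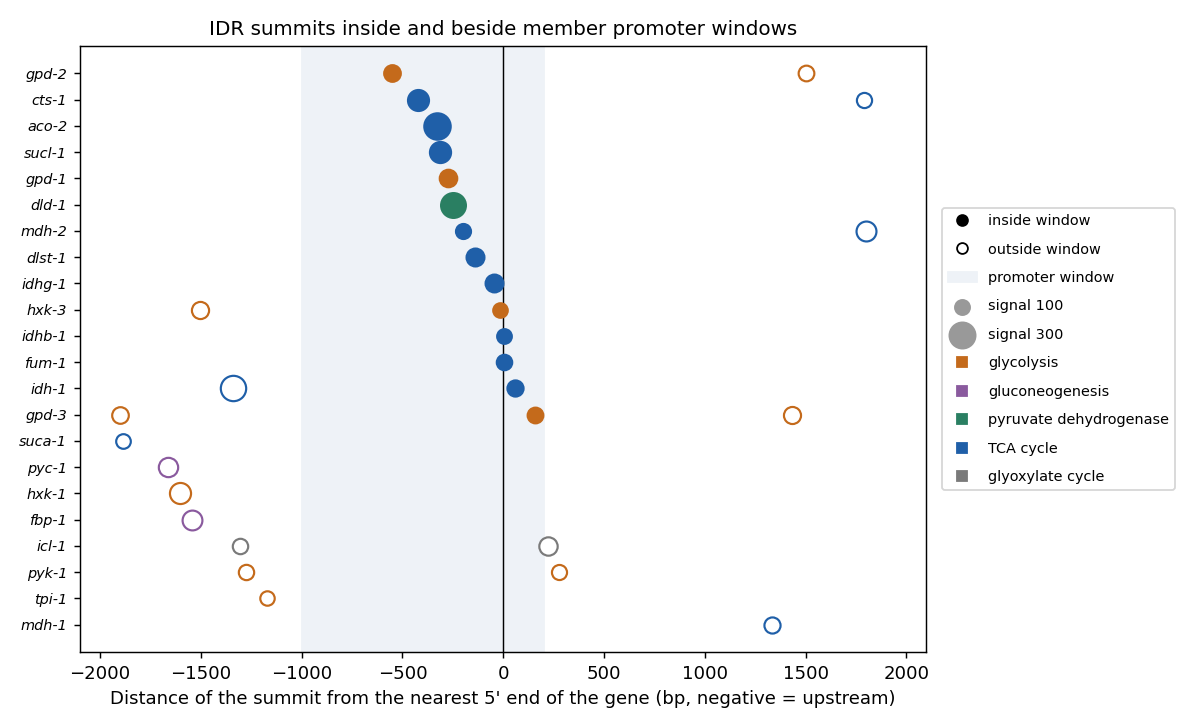
Position of each IDR summit within 2000 bp of a 5′ end of a member gene, in bp from the nearest 5′ end of that gene (horizontal axis, negative upstream), with circle area in proportion to signal and colour for the branch. Filled circles lie inside the promoter window (shaded), open circles outside it. The 14 filled circles run from -551 bp at gpd-2 to 156 bp at gpd-3, and icl-1 and pyk-1 have open circles just past the downstream edge.

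Within the windows, 10 of the 14 summits lay upstream of the 5′ end and 4 downstream, with a median position of -168 bp. These positions are from each member's own 5′ end. Taken from the nearest 5′ end whose window held the summit, the member median was -92.5 bp with 71.4% upstream, against -197 bp and 87.6% over the 1526 IDR promoter summits. By feature, 9 member summits were intergenic, 2 in coding exons (gpd-3 and fum-1), 2 in untranslated exons (idh-1 and idhb-1) and 1 in an intron (gpd-2, in mai-1). Many annotated 5′ ends of C. elegans are sites of trans-splicing, and the start of transcription can lie further upstream. Summits at aco-2, idhg-1 and mdh-2 also lay in the window of a divergent neighbour.

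By chromosome, 5 of 9 members on III had a summit (12.5% of all protein-coding genes there), 4 of 8 on X (9.08%) and 3 of 7 on IV (8.59%). On II it was 1 of 6 (8.52%) and on V 1 of 6 (7.11%). None of the 9 on chromosome I had one (exact 95% upper limit 33.6%), where 9.35% of all protein-coding genes did. Chromosomes were not tested against each other. Of those 9, 8 belong to glycolysis or gluconeogenesis, so that chromosome and branch cannot be told apart for them.

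Replicate agreement was compared for the 14 IDR peaks by the ratio of the larger to the smaller rank. All 14 had a peak over the summit in both replicate lists, and 10 stood among the 2796 strongest of both. Some replicate summits lay more than 50 bp from the IDR summit, in genome coordinates. In replicate 2 these were gpd-1 (-111 bp), cts-1 (-100 bp), fum-1 (98 bp) and idhb-1 (-60 bp), and in replicate 1 mdh-2 (-90 bp). The median ratio was 1.48, against 1.41 for the 1500 IDR promoter peaks found in both replicates. The closest agreement was at gpd-3, gpd-2 and aco-2, with ratios of 1.00, 1.04 and 1.05. The ratio exceeded 3 at 3 members, namely mdh-2 (4.95), fum-1 (3.68) and cts-1 (3.36), and at 6.73% of all matched promoter peaks. The rank was higher in replicate 2 at mdh-2 and in replicate 1 at fum-1 and cts-1. With the 2796 strongest peaks of replicate 1 alone, 15 members had a promoter summit, against 8.65% of all genes, and with those of replicate 2 alone 11 had one, against 8.41%. All 11 of the latter and 13 of the former were among the 14 members counted from the IDR list. Replicate 1 added pdha-1 and icl-1 and lacked mdh-2, and replicate 2 lacked hxk-3, idhb-1 and fum-1. Over the full replicate lists, background regions included, 33 of the 45 members had a promoter summit in both lists. For 5 it was in the list of replicate 1 alone (aldo-1, pck-1, pdhb-1, idh-2 and sucg-1) and for 3 in that of replicate 2 alone (ipgm-1, pyk-2 and mdh-1). The 4 members with none in either were pfk-1.2, tpi-1, gpd-4 and aco-1.

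**Figure D3:**
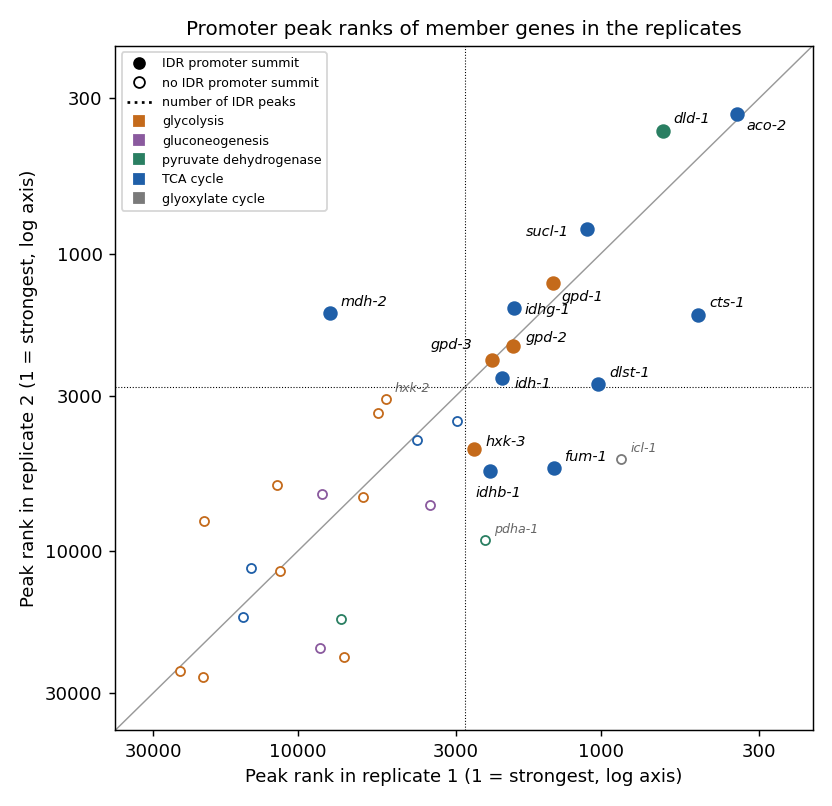
Rank of the promoter peak of each member in replicate 1 (horizontal) and replicate 2 (vertical), both log axes with the strongest rank at the upper right. Filled circles are the 14 members with an IDR promoter summit (the peak over that summit), open circles are other members with a promoter summit in both replicate lists (their strongest), the line is equality and dotted lines mark rank 2796. Members aco-2, gpd-2 and gpd-3 lie near the line, while mdh-2 lies far above it and cts-1 and fum-1 below it.

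The count of members depended on how far down the pooled list peaks were taken. The weakest member inside the IDR list was hxk-3 (signal 92.4), followed by idhb-1 (94.4) and mdh-2 (98.8), and the strongest outside it were hxk-2 (84.3), sucl-2 (83.0) and suca-1 (82.4). Among the 5000 strongest pooled peaks, 20 members (44.4%) had a promoter summit, against 13.3% of all genes. Among the 10000 strongest, 26 members (57.8%) had one, against 20.3%. In the whole pooled list, where background regions are included, the count was 35 members (77.8%), against 34.3% of all genes. The pyruvate dehydrogenase, TCA and glyoxylate branch had the larger share at each depth shown, with 13 of 22 genes at 5000 peaks and 16 at 10000, while glycolysis and gluconeogenesis had 7 and 10 of 23. In the whole list the counts were 18 and 17. Among the 1000 strongest peaks, 4 members were found and all were of the pyruvate dehydrogenase and TCA branch, against 3.64% of all genes.

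**Figure D4:**
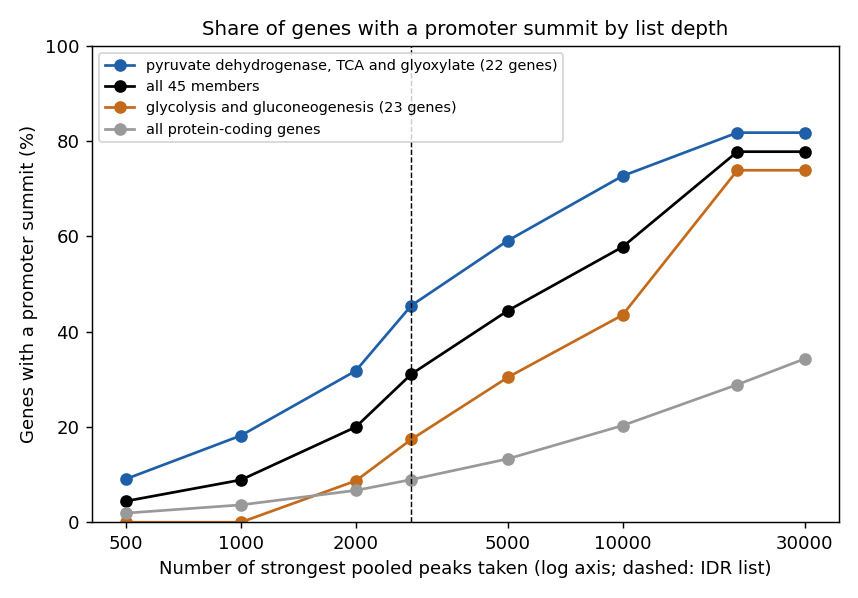
Share of genes with a promoter summit (vertical axis, percent) when a growing number of the strongest pooled peaks is taken (horizontal log axis), for the 22 genes of the pyruvate dehydrogenase, TCA and glyoxylate branch, all 45 members, the 23 genes of glycolysis and gluconeogenesis, and all protein-coding genes. The dashed line marks the 2796 IDR peaks, where the shares are 45.5%, 31.1%, 17.4% and 8.95%.

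The sequence around the summits was described for 8 motifs, each searched on both strands within 50 bp of the summit. The E-box CACGTG was found at idhg-1 alone (7.14% of the 14 windows), against 6.04% of the 1507 nuclear IDR promoter peaks and 2.47% of all windows of 101 bp directly upstream of a gene. ACGTG, the core of the hypoxia response element, which is also part of CACGTG, was found at idhg-1 and sucl-1 (14.3%, against 17.3% and 11.9%). In the printed sucl-1 window it occurs at 2 places on opposite strands. The GATA factor motif TGATAA was found at cts-1 (7.14%, against 14.3% and 12.6%), on the reverse strand and next to the IDR summit. The replicate 2 summit of that peak lay at -100 bp from the IDR summit in genome coordinates. No window held GTAAACA, the binding element of DAF-16 (1.73% of promoter peaks), AGGTCA, a recognition element of many nuclear receptors (2.92%), GAGAGAG (9.09%), TATAAA (7.10%) or CGCGCAGG (0.398%). Those letters were thus absent from the windows searched, which says nothing of the factors named. Base composition ranged from 37.6% G and C at idh-1 to 60.4% at idhb-1 and dlst-1. The median was 51.0%, against 44.6% for the nuclear promoter peaks.

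Neighbouring pathways were described with 5 further lists of genes, of which 39 of 42 names were found. An IDR promoter summit was present at 11 of the 39 (28.2%, exact 95% interval 15.0 to 44.9%), again against 8.95% of all genes. Succinate dehydrogenase, which completes the TCA cycle and is complex II of the respiratory chain, had summits at 2 of 5 genes. They were the flavoprotein subunit gene sdha-1 (signal 201, rank 791, replicate ranks 906 and 870) and the membrane anchor gene mev-1 (signal 306, rank 338, ranks 268 and 495), whose summit also lay in the window of jmjd-4. In the control of pyruvate entry, 2 of 4 genes had one. The pyruvate dehydrogenase kinase gene pdhk-2, whose protein switches that complex off, had a signal of 344 (rank 254), higher than any of the 45 members. The mitochondrial pyruvate carrier gene mpc-2 had a signal of 138 (rank 1475).

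Storage and mobilisation of sugar had summits at 5 of 12 genes (41.7%, exact 95% interval 15.2 to 72.3%), against 8.95% of all protein-coding genes. They were trehalase tre-1 (signal 249), glycogen synthase gsy-1 (193), trehalose-6-phosphatase gob-1 (168), the glycogen debranching enzyme agl-1 (101) and glycogen phosphorylase pygl-1 (91.3). The tre-1 summit was shared with the window of dad-1 and that of agl-1 with pfs-2. The pentose phosphate pathway had a summit at 1 of 7 genes (14.3%, interval 0.361 to 57.9%). It was that of the 6-phosphogluconolactonase gene Y57G11C.3 (signal 215), in a window shared with the mitochondrial ribosomal protein gene mrps-7. Side branches of the core pathways had a summit at 1 of 11 genes (9.09%, interval 0.230 to 41.3%), near the share of all genes. It was that of the glycerol-3-phosphate dehydrogenase gene gpdh-1 (signal 94.9). None of these shares was tested against another.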

How the data were processed

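Per the notes deposited with each sample, peaks of both replicates and of the pooled reads were called by the authors against the same control, and an optimal list was derived from these by IDR. Which aligner, peak caller and threshold were used is not given in the sources used here. Peaks were ranked by the deposited signal. The −log10 q that the authors deposited had 1 value throughout the optimal list and ordered nothing. Lists in build ce11 were used, which has the sequence of WBcel235, with the annotation of Ensembl release 115. Positions count from 1, and the summit is the start column plus the offset column. A replicate peak was matched when its interval held the summit.

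No test was run: shares carry exact binomial (Clopper-Pearson) 95% intervals, which cover counting error only, and are set beside all protein-coding genes. The 45 members, the lists and the motifs were chosen with earlier results of these data known. All members could be named whatever their values. A pooled summit outside the optimal list was named singly within the strongest 10000 peaks. Values of weaker or replicate-only summits (idha-1, ogdh-1, pfk-1.1, pck-1, fbp-1, hxk-1, idh-2, mdh-1, aldo-1 and pgk-1) were added after they were seen. Window assignment was tested on simulated data. The sequences came from RefSeq WBcel235. Scripts ran in Python 3.11.15 with SciPy 1.17.1 and Biopython 1.88.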

Additional observations from a re-analysis of the deposited data

How the results depend on the processing

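No paired analysis was possible because the series has 1 group and no comparison between groups. The count of 14 members was recomputed under 9 alternatives. It was 12 when windows reached 500 bp upstream and 100 bp downstream (6.70% of all genes) and 21 with 2000 bp upstream (11.3%). It was 13 when each summit went only to the nearest 5′ end whose window held it (7.07%). Under that rule gpd-2 still counted, because the window of the nearer mai-1 5′ end did not hold the summit. The count was 14 with outermost 5′ ends only (8.28%), 17 with overlap of peak and window (9.64%), and 11 to 15 without a replicate. With the upper 50% of the optimal list by signal it was 4, all in the pyruvate dehydrogenase and TCA branch (4) and none in glycolysis (0), against 4.86% of all genes. With the whole pooled list it was 35, with 17 in glycolysis and gluconeogenesis and 18 in the other branch, against 34.3%. Glycolysis and gluconeogenesis had 2 members in the short window, where gpd-2 and gpd-3 were lost, and 9 in the long one. With 100 bp on either side of the summit, CACGTG was found in 2 member peaks (14.3%, against 8.63% of all promoter peaks), ACGTG in 6 (42.9%, against 26.3%) and TGATAA in 3 (21.4%, against 24.4%). GTAAACA was found in 1 (7.14%, against 3.85%), AGGTCA in 1 (against 5.64%), GAGAGAG in 1 (against 14.5%) and TATAAA in 1 (against 19.2%). The unknown depth limits what absence from a list can mean.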
